A study of Mus musculus with 17 samples.

Results

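Hippocampus of the adult offspring of aged, untreated mothers was compared with hippocampus of the offspring of young mothers. The members were 3 libraries labelled as coming from aged mothers and 4 labelled as coming from young mothers, grouped by their titles, out of 17 samples in the series. All were bulk polyA RNA from CD1 wild-type mice, a widely used outbred stock, and the label for treatment of the animals themselves was "none". The labels give the offspring an age of 40 to 44 weeks, and the protocol describes adult females of about 10 months from which 1 hippocampus was frozen with RNAlater. Neither the age of these mothers, nor the litters, the time of day at collection nor the number of animals per library is given with the samples. In the text, "aged 1" to "aged 3" and "young 1" to "young 4" are the libraries by the replicate numbers of their titles. Another group of hippocampus libraries, the offspring of aged mothers injected intraperitoneally with rapamycin at 2 mg/kg for 40 weeks from 8 weeks of age ("rapamycin 1" to "rapamycin 3"), entered the model only to share the estimate of spread and is quoted beside some results. The labels do not say that the libraries of a group came from separate animals. The p-values therefore only set the difference between groups against the spread among these libraries within groups, and part of that spread may be technical.

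The 7 libraries held 16434398 to 20220617 counts assigned to genes, and 14389 to 14741 genes with at least 10 counts in each. The biological coefficient of variation between libraries of a group was 23.46% in the fit. Correlations of log2 CPM between pairs of libraries ran from 0.952 to 0.986 across genes. On the first principal component, with 41.56% of the variance of 1000 genes, the groups overlapped, with scores of 17.3, 13.3 and 0.23 in aged 1 to 3 and of -18.9, 27.8, -21.5 and -18.3 in young 1 to 4, so that young 2 stood apart from its group.

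The hippocampus is the cortical structure in which new episodic and spatial memories are formed. When its neurons fire strongly, calcium entry and MAP kinase signalling activate the transcription factors CREB and SRF, which sit on the promoters of immediate early genes. These genes need no new protein to be transcribed, and their messengers appear and decay quickly. Some encode further transcription factors, such as the Fos, Egr and Nr4a families, and others encode proteins that act directly, such as the synaptic protein Arc. Several of the same genes also respond to handling, stress hormones and growth factors.

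In these data 7 genes passed the test and all 7 were immediate early genes with higher levels in the offspring of aged mothers. They were the transcription factors Fos, Fosb, Egr2, Egr4 and Nr4a1, the synaptic regulator Arc, and the kinase Sik1, which feeds back on CREB-dependent transcription. No gene passed in the other direction. With edgeR's quasi-likelihood test and Benjamini-Hochberg adjustment over 14877 genes, the 7 calls higher in the aged group were 0.0471% of the genes tested, and the calls lower were 0%. Before adjustment, 522 genes had p under 0.05, of which 301 were higher (2.02%) and 221 lower (1.49%), where 743.85 would fall under 0.05 if no gene differed. DESeq2 on the same libraries called 52 genes, 40 higher (0.269%) and 12 lower (0.0807%), and its calls included all 7.

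The promoters of these genes are shown because they moved together, and because CREB and SRF are the factors that immediate early promoters are known for. RefSeq windows on GRCm38.p6, from 250 bases before to 50 bases after an annotated start, were at hand for 5 of the 7, and Arc and Sik1 are named only. Capitals mark the core of the cyclic AMP response element, TGACG or CGTCA on the other strand, and the CArG box to which SRF binds. Egr2 has 5 overlapping or neighbouring windows, and the one given holds both motifs.
Fos, chr12:85473640-85473939, plus strand: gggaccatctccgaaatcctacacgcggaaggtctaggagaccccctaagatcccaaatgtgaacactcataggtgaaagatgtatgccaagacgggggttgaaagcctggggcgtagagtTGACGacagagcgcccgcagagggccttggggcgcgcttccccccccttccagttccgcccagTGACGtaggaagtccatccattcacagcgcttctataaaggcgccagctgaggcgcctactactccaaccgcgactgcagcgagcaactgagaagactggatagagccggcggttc
Fosb, chr7:19309996-19310295, minus strand: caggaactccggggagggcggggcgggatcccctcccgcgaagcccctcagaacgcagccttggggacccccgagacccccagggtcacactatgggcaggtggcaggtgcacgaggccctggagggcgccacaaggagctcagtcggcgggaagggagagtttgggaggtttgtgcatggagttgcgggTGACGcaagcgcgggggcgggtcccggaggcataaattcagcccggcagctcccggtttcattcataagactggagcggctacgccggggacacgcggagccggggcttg
Egr2, chr10:67537619-67537918, plus strand: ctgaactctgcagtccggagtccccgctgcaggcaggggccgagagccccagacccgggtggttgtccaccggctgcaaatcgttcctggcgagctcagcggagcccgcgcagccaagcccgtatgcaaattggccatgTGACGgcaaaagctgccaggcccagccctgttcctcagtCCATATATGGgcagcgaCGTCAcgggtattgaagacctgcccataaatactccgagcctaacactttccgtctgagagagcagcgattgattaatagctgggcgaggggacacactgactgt
Egr4, chr6:85513540-85513839, minus strand: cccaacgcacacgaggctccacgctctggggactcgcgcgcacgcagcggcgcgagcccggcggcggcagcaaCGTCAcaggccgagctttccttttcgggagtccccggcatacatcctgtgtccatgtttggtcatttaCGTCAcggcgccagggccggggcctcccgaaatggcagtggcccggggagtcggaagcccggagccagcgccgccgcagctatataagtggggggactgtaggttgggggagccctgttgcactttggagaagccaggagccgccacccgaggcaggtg
Nr4a1, chr15:101266596-101266895, plus strand: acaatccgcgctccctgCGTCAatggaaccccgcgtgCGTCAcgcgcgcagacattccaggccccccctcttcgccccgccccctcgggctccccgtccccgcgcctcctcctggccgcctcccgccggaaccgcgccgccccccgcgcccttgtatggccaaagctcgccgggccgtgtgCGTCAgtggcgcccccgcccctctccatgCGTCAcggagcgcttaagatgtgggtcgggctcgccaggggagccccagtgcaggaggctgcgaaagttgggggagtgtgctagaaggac

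The core TGACG, searched on both strands, was present in the windows of all 5 genes and in those of 34.0% of the 11367 tested genes that have a window. In Fos the cores began at -129 and -66 relative to the start, and the TATAAA motif began at -33. Only Fos of the 5 held TATAAA, which 8.82% of tested genes hold. The full palindrome TGACGTCA was in none of the 5 windows, against 3.52% of tested genes, and it contains the core on both strands. Within these windows the CArG box was found for Egr2 alone, at -72 in the window shown, and for 1.61% of tested genes. Sequence further upstream or downstream was not searched. The lack of a match, as for the CArG box in Fos, therefore does not show that a gene lacks the motif. The EGR motif GCGGGGGCG was found for Fosb and Nr4a1 and for 6.36% of tested genes, and the AP-1 motif TGANTCA for none of the 5 and for 6.33% of tested genes. These matches describe letters in these windows and say nothing of binding.

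Levels below are CPM, read counts relative to the TMM-normalised library size, and fold changes are log2, aged over young mothers, with the standard error. A call is by edgeR unless DESeq2 is named. Fos, a subunit of the AP-1 dimer and the standard marker of recently active neurons, lies on chromosome 12 (85473890 to 85477273, GRCm38). It had 27.4, 37.8 and 61.5 CPM in aged 1 to 3, against 5.99, 7.24, 4.53 and 6.61 CPM in young 1 to 4. The lowest aged library was thus well above the highest young one. The log2 fold change was 2.79 ± 0.27 (edgeR adjusted p = 0.00576), and it lay between 2.42 and 3.03 when each library was left out in turn. Its relative Fosb, on chromosome 7 (19302696 to 19310051), had 32.5, 33.6 and 53.2 CPM in the aged group. In the young group it had 9.39, 9.47, 9.76 and 10.1 CPM, the tightest group of the genes called. The groups did not overlap, and the log2 fold change of Fosb was 2.04 ± 0.19 (edgeR adjusted p = 0.00576).

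Egr2, a zinc finger factor on chromosome 10 (67535475 to 67542188), had 9.40, 6.65 and 15.9 CPM in aged 1 to 3 and only 1.23, 0.309, 1.01 and 1.76 CPM in young 1 to 4. The groups were far apart, although the young libraries were near the lower end of what the depth resolves, where 3 counts correspond to 0.148 to 0.183 CPM. On the log2 scale it was 3.28 ± 0.43 higher in the aged group (edgeR adjusted p = 0.0279), the largest value of the 7. Egr4, on chromosome 6 (85511121 to 85513589), had 65.6, 53.5 and 81.9 CPM in the aged group, against 22.8, 20.3, 20.9 and 30.7 CPM in the young group, and its log2 fold change was 1.50 ± 0.19 (edgeR adjusted p = 0.0279). Nr4a1, an orphan nuclear receptor on chromosome 15 (101254269 to 101274795), had 121, 98.3 and 172 CPM in aged 1 to 3, against 46.1, 47.1, 42.1 and 57.9 CPM in young 1 to 4. Its log2 fold change was 1.43 ± 0.18 (edgeR adjusted p = 0.0279). For both genes every aged library lay above every young one.

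Arc, whose product promotes the removal of AMPA receptors from synapses, lies on chromosome 15 (74669083 to 74672570). It had 271, 259 and 404 CPM in the aged group and 90.0, 101, 80.0 and 133 CPM in the young group. The log2 fold change was 1.62 ± 0.21 (edgeR adjusted p = 0.0279), without overlap. Sik1, on chromosome 17 (31844250 to 31855804), had 18.7, 19.1 and 24.2 CPM in aged 1 to 3 and 8.04, 7.67, 8.75 and 5.27 CPM in young 1 to 4. Here too the groups were apart, by 1.48 ± 0.19 on the log2 scale (edgeR adjusted p = 0.0279). Aged 3 was the highest of the aged libraries for all 7 genes, and over all genes tested it was the highest of the 3 for 34.9%.

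All 7 stayed higher in the aged group in the 20 alternatives run, but the calls depended on single libraries. Without young 1 no gene passed, with an edgeR adjusted p of 0.0552 for Fos and for Fosb. Only Fos and Fosb passed without aged 1, aged 3, rapamycin 1, rapamycin 3 or young 3, in each case 2 genes. Leaving out aged 2 left 5 of the 7, without Arc and Sik1. Without young 2, 15 genes passed, among them all 7, and leaving out young 4 or rapamycin 2 kept the 7. Just outside the threshold were the nuclear receptor Nr4a2 and the glucocorticoid-induced Tsc22d3, each with an edgeR adjusted p of 0.0618.

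**Figure D1:**
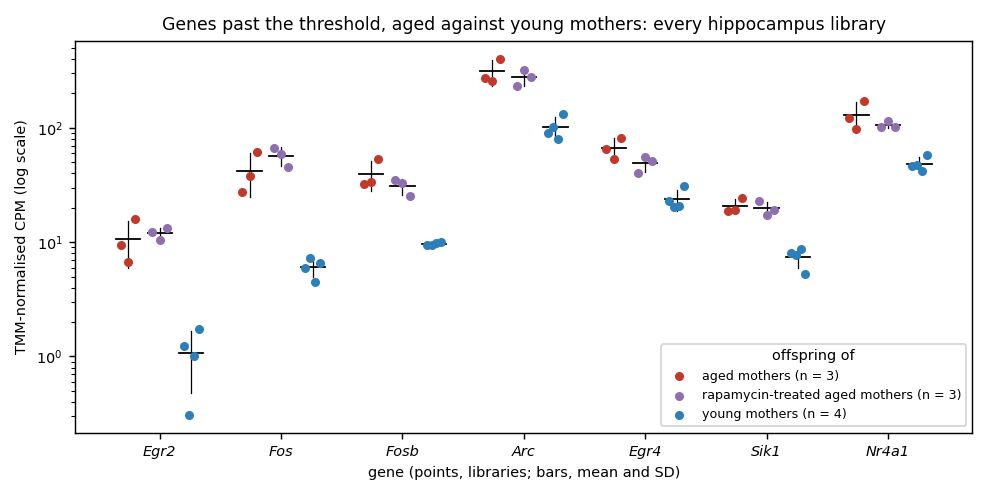
TMM-normalised CPM on a log axis for the 7 genes that passed the threshold, with 1 point per library, in offspring of aged mothers (red, left), of rapamycin-treated aged mothers (violet, middle) and of young mothers (blue, right). Bars are the mean and SD. For each gene the 3 red points lie above the 4 blue ones, as in Fos, with 27.4 to 61.5 CPM against 4.53 to 7.24 CPM.

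The offspring of rapamycin-treated aged mothers had values on the same side of the young group. Fos stood at 66.1, 59.4 and 45.3 CPM in rapamycin 1 to 3, Fosb at 34.7, 32.7 and 25.2 CPM, and Egr2 at 12.2, 10.4 and 13.2 CPM. Against the same 4 young libraries, the log2 fold change was 3.23 ± 0.28 for Fos (edgeR adjusted p = 0.00154), 1.67 ± 0.19 for Fosb (edgeR adjusted p = 0.0114) and 3.45 ± 0.43 for Egr2 (edgeR adjusted p = 0.0179). Sik1 also passed, with 1.41 ± 0.19 (edgeR adjusted p = 0.0356). Arc (1.46 ± 0.21, edgeR adjusted p = 0.0509), Nr4a1 (1.14 ± 0.18, edgeR adjusted p = 0.111) and Egr4 (1.05 ± 0.19, edgeR adjusted p = 0.225) did not. Both comparisons use the same young libraries, so a shift in those 4 enters both.

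Around the 7 calls, most of the other immediate early genes were higher in the aged group without passing the test. The list of immediate early transcription factors had 26 tested members of 27, and the list of effectors 25 of 26. The 7 called genes made up 5 of the first and 2 of the second. The median log2 fold change was 0.76 for the transcription factors and 0.40 for the effectors, against -0.01 over all genes tested. It was above 0 for 25 of 26 and 22 of 25 members, against 47.9% of all genes. Every aged library was above every young library for 18 of 26 transcription factors and 13 of 25 effectors, where 2.92% of all genes had this order, and the reverse order, found for 2.52% of all genes, occurred in neither list. DESeq2 called 10 transcription factors and 7 effectors, all higher, against 0.269% of all genes. Without aged 3 the medians were 0.58 for the transcription factors and 0.23 for the effectors. These lists were drawn up with results of these libraries known, so their counts are a description.

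Nr4a2, a relative of Nr4a1, had 91.3, 87.1 and 103 CPM in aged 1 to 3, against 41.7, 51.9, 39.9 and 46.3 CPM in young 1 to 4. The groups were apart, by 1.06 ± 0.16 on the log2 scale (edgeR adjusted p = 0.0618). Junb, a partner of Fos in AP-1, had 117, 109 and 172 CPM in the aged group and 59.4, 66.0, 42.4 and 60.2 CPM in the young group (1.22 ± 0.21, edgeR adjusted p = 0.151). Egr1, the best known member of its family, had 216, 173 and 308 CPM in the aged group, against 103, 74.8, 75.6 and 131 CPM in the young group (1.27 ± 0.23, edgeR adjusted p = 0.186). Both again had their highest value in aged 3 and no overlap. The neuron-specific factor Npas4 had 12.0, 12.8 and 23.5 CPM in the aged libraries, against 3.46, 1.92, 5.38 and 11.3 CPM in the young ones (1.54 ± 0.48, edgeR adjusted p = 0.990). Here young 4 came close to the aged group, and the spread among the young libraries was wide. At the other end of the list, Jund (0.14 ± 0.27), Klf10 (0.17 ± 0.18), Nr4a3 (0.37 ± 0.23) and Myc (-0.27 ± 0.19) overlapped between the groups, each with an edgeR adjusted p of 0.990.

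Among the effectors, Dusp1, a phosphatase that switches MAP kinases off, had 19.2, 26.9 and 38.7 CPM in aged 1 to 3 and 10.9, 14.4, 11.0 and 12.5 CPM in young 1 to 4. Its log2 fold change of 1.22 ± 0.22 did not pass (edgeR adjusted p = 0.195), although every aged library was above every young one. Cyr61, a secreted matrix protein, had 5.06, 7.48 and 12.1 CPM in the aged group and 3.05, 3.34, 3.37 and 3.51 CPM in the young group (1.31 ± 0.27, edgeR adjusted p = 0.370). Neither gene overlapped. In rapamycin 1 to 3 Dusp1 had 64.5, 47.5 and 48.0 CPM and Cyr61 had 19.9, 15.4 and 13.1 CPM, and against the young group both passed there, with 2.13 ± 0.23 for Dusp1 (edgeR adjusted p = 0.00831) and 2.28 ± 0.27 for Cyr61 (edgeR adjusted p = 0.0153). Gadd45b, which takes part in activity-dependent DNA demethylation, had 27.0, 23.4 and 26.8 CPM in the aged group, against 13.0, 18.3, 8.00 and 11.1 CPM in the young group (1.03 ± 0.23, edgeR adjusted p = 0.437). Other effectors lay near 0 or below it. The scaffold gene Homer1 was at 0.04 ± 0.13 (edgeR adjusted p = 0.990), the kinase Plk2 at 0.02 ± 0.20 (edgeR adjusted p = 0.994) and Ptgs2, the inducible cyclooxygenase, at -0.57 ± 0.47 (edgeR adjusted p = 0.990).

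**Figure D2:**
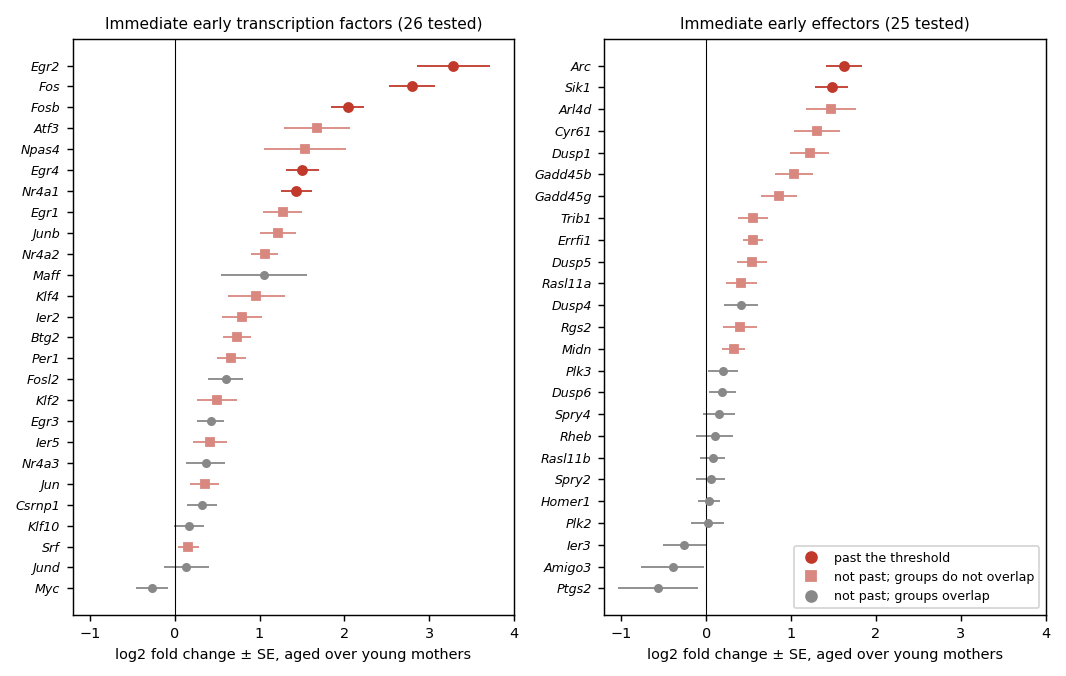
Log2 fold change with its standard error, offspring of aged over young mothers, for the tested members of the immediate early lists: 26 transcription factors (left) and 25 effectors (right). Red circles passed the threshold, pale squares did not pass but had no overlap between groups, and grey circles overlapped. Values are above 0 for 25 of 26 transcription factors and for 22 of 25 effectors.

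Genes that follow later after neuronal activity lay around 0 as a list. Of 29 delayed genes listed, 28 were tested, with a median log2 fold change of 0.01, and 14 lay above 0 and 14 below. None passed, by edgeR. The growth factor Bdnf had 61.7, 51.3 and 65.3 CPM in aged 1 to 3 and 59.8, 50.0, 64.0 and 72.4 CPM in young 1 to 4 (-0.05 ± 0.16 on the log2 scale, edgeR adjusted p = 0.990). The synaptic pentraxin Nptx2 (0.05 ± 0.34, edgeR adjusted p = 0.994), the secreted peptide precursor Vgf (0.04 ± 0.19, edgeR adjusted p = 0.992) and secretogranin Scg2 (-0.02 ± 0.16, edgeR adjusted p = 0.994) also overlapped between the groups. In 5 of the 28 members the aged libraries were all above the young ones, an order that 2.92% of all genes had. The one of smallest p, and the only member called by DESeq2, was Tiparp, a mono-ADP-ribosyltransferase, with 27.3, 28.1 and 33.6 CPM in the aged group, against 19.1, 19.7, 17.2 and 16.3 CPM in the young group (0.71 ± 0.13, edgeR adjusted p = 0.185). Crem, a CREB relative that can repress its targets, had 24.1, 20.6 and 18.8 CPM in the aged group and 13.6, 16.9, 13.1 and 15.1 CPM in the young group (0.53 ± 0.14, edgeR adjusted p = 0.696).

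For the signalling genes upstream and the genes of the synapse no member passed the test. All 30 members of the MAP kinase and CREB list were tested, with a median of -0.03, no call and no unadjusted p under 0.05 in either direction. The 38 glutamate receptor and postsynaptic density genes had a median of -0.15, with 9 above 0 and no call. The 29 presynaptic vesicle genes had a median of -0.07 and no call. For the synaptic lists library young 2 stood low, at -0.31 for presynaptic genes against 0.11 to 0.12 in the other young libraries, on the scale of mean log2 level relative to the mean of the 7 libraries.

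A second group of genes, those induced by glucocorticoid hormones through their receptor, had a positive median, and none of its members passed the test. The list held 24 genes, of which 23 were tested. Their median log2 fold change was 0.55, with 18 above 0, 12 at an unadjusted p under 0.05, all higher, and 12 without overlap, all higher too. Over all genes tested, these shares were 2.02% and 2.92%. DESeq2 called 6 of the list higher, against 0.269% of all genes. Dusp1, Arl4d, Errfi1 and Per1 are on this list and among the immediate early genes too. Tsc22d3, also called GILZ, a leucine zipper protein that mediates anti-inflammatory glucocorticoid effects, had 151, 160 and 107 CPM in aged 1 to 3, against 34.6, 61.4, 44.0 and 57.9 CPM in young 1 to 4. The groups were separated by a wide gap. Its log2 fold change was 1.49 ± 0.22 (edgeR adjusted p = 0.0618), and it passed without young 2 (edgeR adjusted p = 0.0437), without a low-count filter (edgeR adjusted p = 0.0334) and with the ribosomal covariate (edgeR adjusted p = 0.0182).

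Pdk4, a kinase that shuts down pyruvate dehydrogenase and so spares glucose, had 43.0, 37.0 and 27.1 CPM in the aged group and 10.6, 19.1, 11.4 and 13.1 CPM in the young group (1.40 ± 0.23, edgeR adjusted p = 0.125). Sgk1, a kinase of ion transport, had 186, 177 and 122 CPM in the aged group, against 67.0, 93.7, 74.4 and 65.1 CPM in the young group (1.11 ± 0.19, edgeR adjusted p = 0.151). Neither overlapped, and in both aged 3 was the lowest aged library. This order differed from the immediate early genes. Aged 1 was the highest of the aged libraries for 15 of the 23 glucocorticoid-responsive genes, against 34.8% of all genes, whereas aged 3 was the highest for 20 of the 26 immediate early transcription factors. The glucocorticoid list's mean log2 level was 0.55, 0.29 and 0.06 in aged 1 to 3, 0.13, -0.06 and 0.04 in rapamycin 1 to 3, and -0.25, 0.05, -0.30 and -0.40 in young 1 to 4. Young 2 thus came close to aged 3, but every aged library lay above every young one on this scale. Leaving out aged 1, the median was 0.41.

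Other members of the list had values near 0. Fkbp5, a chaperone of the receptor itself and its best known target, had 87.6, 76.3 and 66.7 CPM in aged 1 to 3 and 78.6, 66.5, 72.3 and 70.9 CPM in young 1 to 4 (0.09 ± 0.13, edgeR adjusted p = 0.990). The transcription factor Zbtb16 (-0.20 ± 0.32), the metallothionein Mt1 (-0.22 ± 0.47) and the receptor gene Nr3c1 (0.16 ± 0.10) each had an edgeR adjusted p of 0.990. The chaperone gene Hspa1a, from the heat shock list, had 13.7, 11.3 and 12.5 CPM in the aged group and 7.34, 7.18, 7.29 and 6.61 CPM in the young group (0.81 ± 0.14, edgeR adjusted p = 0.130). Its near-identical copy Hspa1b had 15.5, 23.9 and 25.2 CPM in the aged group, against 11.4 to 20.3 CPM in the young group, so the split of reads between the copies is uncertain. The 28 heat shock genes had a median of 0.05 and no call by edgeR, while DESeq2 called Hspa1a alone, with an adjusted p of 4.51e-05.

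Genes induced by interferon, which carry antiviral defence and antigen presentation, had a negative median. The list held 33 genes, of which 30 were tested, and 28 had a log2 fold change below 0, with a median of -0.87. None passed by edgeR. At an unadjusted p under 0.05 there were 14, all lower, and 11 had every aged library below every young one. Over all genes tested, these shares were 1.49% and 2.52%. DESeq2 called 3 lower, which were Gbp3, Gbp7 and Irf7, against 0.0807% of all genes. Levels were low for many members. Gbp7, an interferon-inducible GTPase, had 4.78, 4.21 and 3.82 CPM in aged 1 to 3, against 8.98, 6.44, 11.3 and 11.6 CPM in young 1 to 4 (-1.16 ± 0.28, edgeR adjusted p = 0.562). Its neighbour Gbp3 had 1.78, 2.05 and 1.81 CPM in the aged group and 3.46, 2.85, 6.99 and 6.51 CPM in the young group (-1.40 ± 0.33, edgeR adjusted p = 0.557). The aged libraries were tight and the young ones spread, with young 2 the lowest of the young for both.

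Irf7, the factor that amplifies the interferon response, had 1.00, 0.721 and 0.603 CPM in the aged group, against 3.99, 1.36, 2.46 and 2.84 CPM in the young group (-1.78 ± 0.44, edgeR adjusted p = 0.600). Oas1a, a sensor of double-stranded RNA, had 0.111, 0.111 and 0.301 CPM in the aged group and 1.12, 0.681, 0.603 and 0.981 CPM in the young group (-2.21 ± 0.53, edgeR adjusted p = 0.557). Its aged values lie at or near the level of 3 counts. The most abundant member, B2m, the light chain of class I molecules, had 105, 87.7 and 68.5 CPM in the aged group and 88.4, 108, 79.5 and 98.4 CPM in the young group (-0.11 ± 0.20, edgeR adjusted p = 0.990). Class I heavy chain genes and the Gbp genes have near-identical copies, and counts of H2-K1 and H2-T23 were erratic within groups, so their split is uncertain. The list's mean log2 level was -0.25, -0.46 and -0.53 in aged 1 to 3, -0.20, -0.26 and -0.27 in rapamycin 1 to 3, and 0.33, -0.01, 0.38 and 0.54 in young 1 to 4. Every aged library was below every young one on this scale, and so was every rapamycin library. With each library left out in turn the median lay between -0.98 and -0.76. Under a filter of 10 CPM, which keeps few of these genes, it was -0.27.

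**Figure D3:**
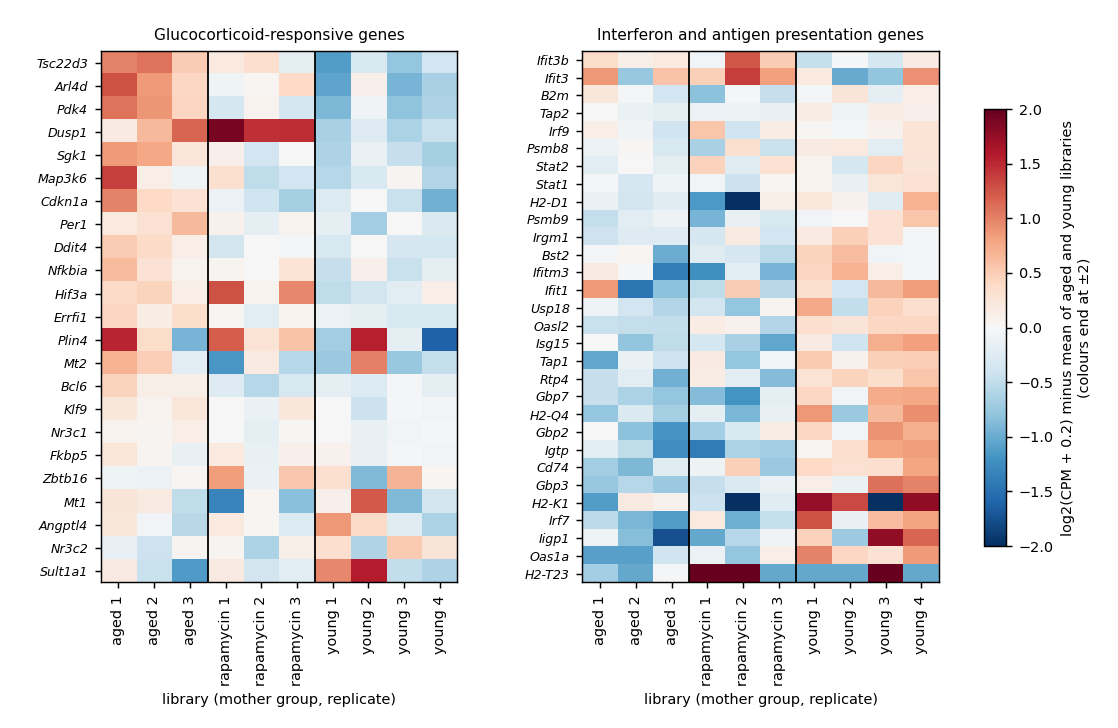
Heat map of log2(CPM + 0.2) minus the mean of the aged and young libraries, for the tested glucocorticoid-responsive genes (left) and interferon and antigen presentation genes (right), with 1 column per library in the order aged, rapamycin, young. Colours end at 2 in each direction. Tsc22d3, Pdk4 and Sgk1 are red in the 3 aged columns, and Gbp3, Gbp7 and Irf7 are blue there, against the opposite colours in most young columns.

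No gene was called lower by edgeR. Among genes lower in the aged group with a mean of at least 2 on the log2 CPM scale and no overlap, the 5 of smallest unadjusted p are given here as not passing. DESeq2 called all 5 lower, with adjusted p of 1.58e-04 for Fam210b, 0.00322 for Brd9, 0.0171 for Noc2l, 0.0326 for Galnt9 and 0.00729 for Gbp4. These calls rest on the same counts by which the genes were chosen, so they are not separate support. Fam210b, a mitochondrial membrane protein of red cell development, had 21.7, 22.7 and 28.3 CPM in aged 1 to 3, against 48.5, 35.6, 60.5 and 56.1 CPM in young 1 to 4 (-1.05 ± 0.19, edgeR adjusted p = 0.177). Its values in rapamycin 1 to 3 were 54.6, 64.0 and 52.8 CPM, in the range of the young libraries or above it. Without young 2 it passed (-1.17 ± 0.15, edgeR adjusted p = 0.0333). Brd9, a subunit of a BAF-type chromatin remodeller, had 48.2, 69.0 and 66.7 CPM in the aged group and 101, 93.1, 118 and 125 CPM in the young group (-0.84 ± 0.17, edgeR adjusted p = 0.351). Noc2l, a nucleolar protein that inhibits histone acetylation, had 32.0, 31.3 and 31.5 CPM in the aged group, against 43.7, 39.4, 52.7 and 56.0 CPM in the young group (-0.60 ± 0.14, edgeR adjusted p = 0.475). Galnt9, an enzyme of protein O-glycosylation, had 62.8, 80.1 and 77.2 CPM in the aged group and 122, 109, 101 and 108 CPM in the young group (-0.59 ± 0.14, edgeR adjusted p = 0.562). None of these overlapped, as the choice required. Gbp4, another interferon-inducible GTPase, had 0.278, 0.111 and 0.502 CPM in the aged group and ranged from 0.804 to 21.3 CPM in the young group (-5.07 ± 1.22, edgeR adjusted p = 0.558), and it also ranged from 0.187 to 3.38 CPM in the rapamycin group. It met the mean level only through young libraries.

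Cell type markers describe what the dissected tissue held. In bulk tissue fewer cells of a type and less RNA per cell cannot be told apart. The hippocampal identity genes, 13 of 13 tested, had a median of -0.08, no call and no unadjusted p under 0.05. Slc17a7, the vesicular glutamate transporter of cortical neurons, had 1301, 1532 and 1775 CPM in aged 1 to 3 and 1946, 1322, 1699 and 2016 CPM in young 1 to 4. The forebrain neuron factor Neurod6 had 301, 229 and 297 CPM in the aged group, against 329, 295, 260 and 332 CPM in the young group. The labelled tissue thus had its defining genes in all 7 libraries, at overlapping levels. Markers of the subfields had no call, with medians of 0.04 for dentate granule cells, 0.07 for CA1, -0.12 for CA2 and -0.40 for CA3. Their levels varied inside the groups, and the CA1 list stood at -0.21, -0.55 and 0.68 in aged 1 to 3 and at -0.02, -0.69, 0.20 and 0.60 in young 1 to 4. Aged 3 was highest among the aged libraries both for CA1 markers and for the immediate early transcription factors (0.83). Young 4 was highest among the young ones for both (-0.31 for the transcription factors, against -0.35, -0.49 and -0.53 in young 1 to 3). The order did not match in all libraries. Aged 2 was below aged 1 for CA1 markers and above it for the transcription factors (0.44 against 0.41). In rapamycin 1 to 3 the CA1 list stood at -0.29, -0.31 and -0.86, and the transcription factors at 0.58, 0.52 and 0.59. The part of CA1 content in the immediate early values was not tested. The CA3 median was -0.15 without aged 1, -0.17 without aged 2, -0.18 without young 1 and -0.16 without young 4, and the dentate and CA1 medians changed sign with single libraries left out, as in the -0.14 of dentate markers without aged 1 and the -0.11 of CA1 markers without aged 3.

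Among blood vessel markers, the endothelial list stood lower in all 3 aged libraries than in 3 of the 4 young ones. All 20 endothelial markers were tested, with a median of -0.61, 17 below 0 and no call. At an unadjusted p under 0.05 there were 3, all lower, against 1.49% of all genes. Ly6a, a surface antigen of brain endothelium in mice, had 7.51, 8.65 and 8.34 CPM in aged 1 to 3, against 33.7, 11.3, 25.4 and 24.5 CPM in young 1 to 4 (-1.54 ± 0.49, edgeR adjusted p = 0.990). The tight junction protein Cldn5 had 15.2, 15.9 and 10.9 CPM in the aged group and 37.0, 15.4, 26.4 and 37.3 CPM in the young group (-1.05 ± 0.37, edgeR adjusted p = 0.990). Young 2 lay with the aged libraries. The endothelial list stood at -0.15, -0.38 and -0.30 in aged 1 to 3, 0.63, -0.53 and 0.71 in rapamycin 1 to 3, and 0.50, -0.70, 0.55 and 0.48 in young 1 to 4, so that the spread inside the rapamycin and young groups was wider than the gap between groups. The 18 mural cell and fibroblast markers had a median of -0.40, 15 below 0 and no call. Their list overlapped between the groups, at 0.27, -0.26 and -0.48 in aged 1 to 3 and 0.28, -0.32, 0.33 and 0.19 in young 1 to 4. Over the alternatives the endothelial median lay between -0.896 and -0.21, and the mural cell and fibroblast median between -0.55 and -0.23. For both lists the value nearest 0 came with the ribosomal level as a covariate. Young 2 was the lowest young library both for endothelial markers and for the interferon list. The part of vessel content in the interferon values was not tested.

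For markers of the thalamus and habenula, aged 1 stood furthest from the other libraries. Aged 1 had 13.6 CPM of Chrna3 and 9.45 CPM of Pou4f1, a receptor subunit and a transcription factor of the medial habenula, against at most 0.866 CPM and 0.124 CPM in the other 6 libraries. Zic1, a factor of the thalamic and septal region, had 37.0, 6.49 and 3.77 CPM in aged 1 to 3 and 4.28, 3.09, 2.77 and 4.03 CPM in young 1 to 4. The thalamus and habenula list, with 16 tested of 18, stood at 1.13 in aged 1, 0.00 and -0.07 in aged 2 and 3, and -0.33 to -0.19 in the young group. Its median was 0.40 with no call, and 0.21 without aged 1. Every aged library was above every young one in list level, although this order held for 0 of the 16 members. Of the 16, 15 lay above 0, against 47.9% of all genes. At an unadjusted p under 0.05 there were 7, all higher, against 2.02% of all genes. Without aged 1 the log2 fold change of Fos was 3.03 ± 0.25 (edgeR adjusted p = 0.00593), and the part of these structures in the other values was not tested.

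Markers of adjoining forebrain regions were as follows. The 14 cortex and subiculum markers, 9 of them above 0, had a median of 0.29, or 0.11 without aged 3, and no call by edgeR. DESeq2 called Nr4a2 of this list, and their summed level was 725 to 792 CPM in the aged group and 644 to 725 CPM in the young group. The list level was 0.16, 0.23 and 0.33 in aged 1 to 3, 0.06, 0.19 and -0.39 in rapamycin 1 to 3, and -0.35, 0.03, -0.21 and -0.21 in young 1 to 4, so the aged and young libraries did not overlap. Nr4a2 is on this list as well as among the immediate early genes. Tshz2, a factor of the retrosplenial region, had 14.7, 40.7 and 52.0 CPM in the aged group, against 12.7, 30.3, 12.2 and 10.9 CPM in the young group, whereas the layer marker Tle4 overlapped between the groups. The part of these regions in the immediate early values was not tested. Of 12 striatum and amygdala markers 10 were tested, with a median of 0.15 that lay between 0.04 without aged 2 and 0.28 without young 3, summed levels of 104 to 118 CPM in the aged group and 71.5 to 109 CPM in the young group, no call by edgeR, and Isl1 at 0 in aged 2 and 3 and Sim1 at 0 in all 7 libraries. The 14 choroid plexus and ependyma markers tested had a median of 0.27 and stood at 0.88, 0.55 and -0.08 in aged 1 to 3 and at -0.88, 1.11, -0.56 and -1.02 in young 1 to 4. This median rested on single libraries, being 1.04 without young 2, 0.56 without aged 3, 0.09 without aged 1 and 0.11 without young 1. Young 1 held 348 CPM of the pituitary hormone gene Prl, against at most 0.167 CPM in the other 6 libraries, and 1.76 CPM of Gh.

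Several abundant gene classes followed the library more than the group. Of 79 tested cytosolic ribosomal protein genes, 77 had a log2 fold change above 0, with a median of 0.28 and no call. Their mean log2 level was 0.38, 0.25 and -0.07 in aged 1 to 3, against -0.33, 0.56, -0.62 and -0.18 in young 1 to 4, and young 2 was above every aged library. The median was 0.58 without young 2, 0.17 without aged 1 and 0.13 without young 3. Nuclear genes of the respiratory chain (median 0.10, 70 of 79 above 0) and of the mitochondrial ribosome (median 0.07, 59 of 74 above 0) ran along with them, young 2 again being highest at 0.53 and 0.43. Without young 2 their medians were 0.37 and 0.29, without young 3 both were -0.02, and with the ribosomal covariate they were -0.10 and -0.08. With the ribosomal level as a covariate, 11 genes passed the test, the 7 and also Nr4a2, Tsc22d3, Pdk4 and Per1. In an alternative chosen after seeing the data, the libraries aged 1 (habenula markers), young 1 (Prl) and young 2 (ribosomal and endothelial levels) were left out together. With 2 libraries against 2 no gene passed, while Fos kept a difference of 3.15 on the log2 scale (edgeR adjusted p = 0.137) and Fosb one of 2.12 (edgeR adjusted p = 0.251).

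**Figure D4:**
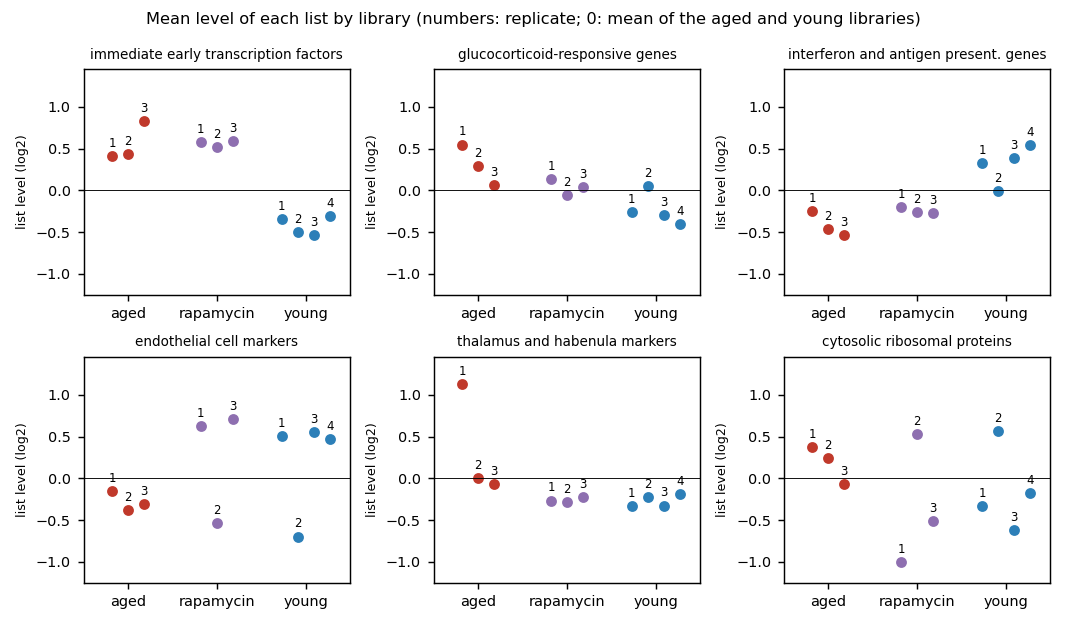
Mean log2 level of 6 gene lists in each library, relative to the mean of the aged and young libraries, with replicate numbers beside the points and groups in the order aged, rapamycin, young. The aged and young points do not overlap for the immediate early transcription factors or the interferon, glucocorticoid, and thalamus and habenula lists. The gap is narrow for the glucocorticoid list (0.06 in aged 3, 0.05 in young 2). The endothelial and ribosomal lists spread within groups. Aged 1 stands alone at 1.13 for thalamus and habenula markers.

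The molecular clock is given because Per1 is at once a clock gene, an immediate early gene and a glucocorticoid target, and because the time of day at collection is not given. Per1 had 85.0, 91.4 and 116 CPM in aged 1 to 3 and 65.2, 45.5, 74.2 and 60.4 CPM in young 1 to 4 (0.67 ± 0.17, edgeR adjusted p = 0.683). The 18 core clock genes had a median of 0.18 and no call. Of these, 13 lay above 0, against 47.9% of all genes. At an unadjusted p under 0.05 there were 4, all higher, against 2.02% of all genes. Arntl, the central activator also known as Bmal1, had 35.4, 27.9 and 27.0 CPM in the aged group, against 30.5, 28.8, 29.4 and 37.9 CPM in the young group. The repressor Nr1d2 had 134, 115 and 118 CPM in the aged group and 90.9, 104, 104 and 89.2 CPM in the young group (0.33 ± 0.11, edgeR adjusted p = 0.990). All 4 D-box regulators, the PAR bZip factors Dbp, Tef and Hlf and their antagonist Nfil3, were without overlap and higher in the aged group, an order that 2.92% of all genes had, with a median of 0.41 and no call. Hlf had 180, 175 and 178 CPM in the aged libraries, against 126, 148, 127 and 110 CPM in the young ones (0.48 ± 0.13, edgeR adjusted p = 0.716).

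Further lists had no call by edgeR. The 39 mTOR pathway and nutrient sensor genes had a median of 0.05, the 30 autophagy and lysosome genes 0.05, the 24 insulin and growth factor genes -0.04, and the 35 imprinted genes -0.10. DNA methylation and chromatin enzymes had a median of -0.02 over 32 genes, with 16 above 0 and 16 below. Adult neurogenesis markers had a median of 0.00 over 14 genes, and 24 interneuron markers one of -0.11. Among glia, the medians were 0.18 for 19 astrocyte markers, 0.24 for 25 oligodendrocyte and myelin genes and 0.01 for 23 microglia markers. These rested on single libraries: without young 2 they were 0.43, 0.49 and 0.22, and without aged 2 they were 0.09, -0.03 and -0.03. Inflammation genes had a median of -0.08 over 18 genes. At an unadjusted p under 0.05 each of these lists held at most 3 genes.

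**Figure D5:**
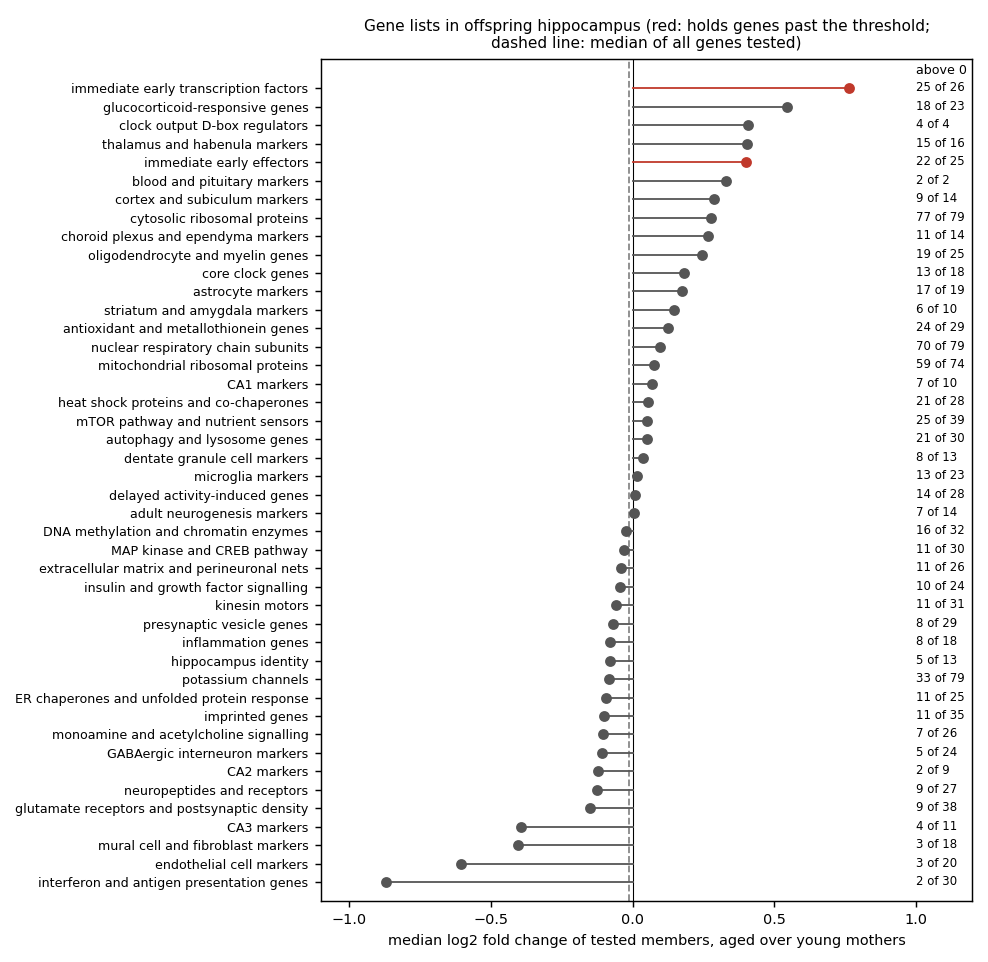
Median log2 fold change, offspring of aged over young mothers, of the tested members of 44 gene lists, with the number of members above 0 at the right and the median of all genes tested as a dashed line. Red marks the immediate early lists, which hold the 7 genes that passed. The medians run from -0.87 for interferon genes to 0.76 for immediate early transcription factors.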

How the data were processed

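PolyA RNA of whole hippocampus was sequenced, with libraries made from 2 µg of total RNA by a NEBNext Ultra kit, per the labels' protocols. The deposited values are whole-number read counts per gene, 1 file per library. The authors aligned with STAR and counted with HTSeq on mm10, per the submitters' processing notes, while tool versions, the annotation and strandedness are not given here. Rows of unassigned reads were left out of library sizes and tests. In the 7 libraries, reads in no gene came to 11.6% to 15.1%, ambiguous reads to 1.70% to 1.92% and reads without a unique alignment to 5.09% to 8.01% of all reads in these files. Without a known strand setting, overlapping and antisense genes cannot be told apart.

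Groups came from the titles. From 24491 genes, filterByExpr kept 14877, libraries were scaled by TMM, and edgeR 4.0.16 (R 4.3.3, limma 3.58.1) fitted all 10 hippocampus libraries with a quasi-likelihood test of aged minus young and Benjamini-Hochberg adjustment at 0.05. The standard error is the log2 fold change divided by the root of F. DESeq2 1.42.0 was an alternative. Further steps used Python 3.11.15, pandas 2.3.3, numpy 2.4.6 and matplotlib 3.10.9. List levels are means over tested members of log2 CPM (prior count 2) minus the mean of the 7 libraries. Positions come from GENCODE M21 (GRCm38), which matched 97.0% of tested symbols, and promoter windows from RefSeq.

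The members, the 44 lists and the tests were chosen with earlier results of these data known. Named genes were those called, with at least 2 mean log2 CPM and no overlap, the 15 with the largest rise and fall, the 5 of smallest unadjusted p where fewer than 5 passed, and up to 4 members of smallest unadjusted p in each list, 173 in all, some of which are not reported here. Other list members and marker genes in the text were chosen after their values were seen.

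On simulated counts for 14762 genes with this comparison's libraries and 200 changed genes, the fit recovered 0% of genes with a log2 fold change of 0.5, 53.7% at 1 and 95.5% at 2, with 6 false calls of 105. The simulated noise was drawn independently for each gene, without shifts shared across a library. The changed genes also gave more calls than the real data did, which loosens the adjusted cut-off. Recovery in the real data may therefore be lower. Alternatives were RLE scaling, no filter, a 10 CPM filter, robust dispersions, a fit of the 2 groups alone, DESeq2, a replicate block, a ribosomal covariate, thinning to the smallest total, each library left out in turn, and 3 libraries left out together, the last chosen after seeing the data.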

Additional observations from a re-analysis of the deposited data

Results flagged for a closer look

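In the 4 young-mother libraries, 16 of 216 items (172 named genes and 44 list levels) had 1 library far from the other 3, by a ratio of its gap to the whole range above the 95% critical value of Dixon. Chance gives about 1 in 20. Groups of 3 were not tested.

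Young 2 was the library apart in 11 of the 16. It was high for Ddit4 (64.0 CPM, against 49.7 to 50.9 CPM in the other young libraries, ratio 0.919), Herpud1 (43.6 CPM, ratio 0.952), Kif1c (188 CPM, ratio 0.939) and Prdx6 (399 CPM, ratio 0.834). It was also high for Aspa (23.3 CPM, ratio 0.890), Tshz2 (30.3 CPM, ratio 0.910), Pomc (1.92 CPM, ratio 0.899) and Clic6 (2.72 CPM, ratio 0.872). It was low for Gpr161 (41.5 CPM, ratio 0.915), for the endothelial list level (-0.70, ratio 0.940) and for the presynaptic list level (-0.31, ratio 0.972).

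Young 1 was high for Pdgfra, the receptor of oligodendrocyte precursors (68.6 CPM, ratio 0.910), Col1a1 (6.34 CPM, ratio 0.894), Mmp14 (26.9 CPM, ratio 0.875) and Mcm2 (7.86 CPM, ratio 0.849). Young 3 was high for the core clock list level (0.03, against -0.15 to -0.13, ratio 0.900).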

How the results depend on the processing

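The 7 called genes kept their direction in all 20 alternatives. The 7 calls (7 higher, 0 lower) became 2 (2 higher) with only the 2 groups compared, 11 (11 higher) with the ribosomal covariate, 52 with DESeq2 (40 higher, 12 lower) and 0 (0 higher) with aged 1, young 1 and young 2 left out together. Leaving out each library in turn gave 0 to 15 calls, of which 0 to 14 were higher and 0 to 1 lower. RLE scaling, a 10 CPM filter, robust dispersions and thinning left 7 calls, and no filter gave 9. With fewer libraries the fits have fewer degrees of freedom; otherwise the cause was not tested. No called gene changed sign. Among 173 named genes, 7, none of them called, changed sign in 9 of 3418 values. Of 44 list medians, 22 changed sign in some alternative (46 of 879 values), all with a median within 0.24 of 0, as in the respiratory chain (-0.10) and the mitochondrial ribosome (-0.08) with the ribosomal covariate. Medians of lists moved by more than their spread between libraries in few cases: without aged 3 the immediate early medians were 0.58 for transcription factors and 0.23 for effectors, and under the 10 CPM filter the interferon median was -0.27. The CA3 median lay at -0.14 with the replicate block.

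Same-numbered aged and young libraries had correlations of -0.179, 0.213 and 0.152 in their deviations from the group means, and differently numbered ones ran from -0.365 to 0.313. The labels do not say whether the numbers pair the samples, and these few correlations cannot settle it. The main fit used no pairing. With the replicate block there were 9 calls, 8 higher and 1 lower, and 6 of the 7 were among them, without Nr4a1 and with Npas4, Tsc22d3 and Gbp4 added.

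At this depth 3 counts are 0.148 to 0.183 CPM, which limits genes of low level such as many of the interferon list. In the simulated data none of the genes with a log2 change of 0.5 was recovered.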

Other observations

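Some genes outside the lists described above were called by DESeq2 and not by edgeR. Dio2, the enzyme that makes active thyroid hormone in astrocytes, had 150, 188 and 135 CPM in aged 1 to 3, 109, 125 and 79.8 CPM in rapamycin 1 to 3, and 76.6, 71.5, 83.9 and 60 CPM in young 1 to 4. Its log2 fold change, aged over young, was 1.11 ± 0.18, with an adjusted p of 0.125 by edgeR and of 3.84e-05 by DESeq2. Pygb, the brain form of glycogen phosphorylase, had 310, 336 and 346 CPM in the aged group and 249, 228, 256 and 262 CPM in the young group (0.41 ± 0.11). Both were without overlap.

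Baiap2l1, an adaptor of the actin cytoskeleton, had 0.50, 0.499 and 0.402 CPM in aged 1 to 3, 0.761, 0.622 and 10.3 CPM in rapamycin 1 to 3, and 0.822, 12.0, 27.1 and 28.3 CPM in young 1 to 4. Within the rapamycin and the young group single libraries thus differed by more than 10 times, and young 1 and rapamycin 1 and 2 lay near the aged libraries. Gbp4 varied in a similar way, with 0.278, 0.111 and 0.502 CPM in aged 1 to 3, 1.62, 0.187 and 3.38 CPM in rapamycin 1 to 3, and 4.34, 0.804, 21.3 and 14.8 CPM in young 1 to 4. The choice of these genes followed a look at their values.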
